A study of Homo sapiens with 13 samples.

Results

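In TE-7 cells, 62 genes were higher in the library of cells exposed to interleukin-13 (IL-13) than in the control library at 24 hr, without a matching difference at 2 or 6 hr. TE-7 is an established line of human esophageal epithelial cells. These genes were chosen by measured values, namely the difference between the IL-13 library and the control library at each time. The difference is log2((IL-13 + 0.1)/(control + 0.1)) of RPKM, the number of reads scaled to transcript length and to all mapped reads. A gene was taken when its difference was at least 0.8 at 24 hr and below 0.5 at 2 and 6 hr, its span was at least 300 bp and its RPKM was at least 1 in a library of 24 hr. Of 23637 genes in the tables, 12389 had the span and the RPKM, 127 of those had the difference at 24 hr, and 66 of those were below the limit at the early times. Keratin, claudin, kallikrein, CC chemokine, interleukin, matrix metalloproteinase, PAPSS, lysyl oxidase and SERPINB symbols were to be left out, which removed 0 genes. The 4 read-through transcripts PMF1-BGLAP, CKLF-CMTM1, TNFSF12-TNFSF13 and C1QTNF3-AMACR were left out, which gave the 62.

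RNA came from cells exposed to 100 ng/ml of IL-13 for 2, 6 or 24 hr and from control cells at 2, 6 and 24 hr, grown in RPMI medium with fetal calf serum, and each treatment and time is 1 library. The active histone marks H3K27Ac, H3K9Ac and H3K4me3 were mapped by chromatin immunoprecipitation and sequencing (ChIP-seq) at 6 hr with IL-13 and in control cells, again with 1 library each. All libraries come from this single cell line, no difference has a replicate, and no test of IL-13 against control was made here. In bulk RNA, a change in all cells and a change in the share of cells that express a gene cannot be told apart. All 10 markers of squamous epithelium were at an RPKM of 1 or more in every RNA library, against 3 to 4 of 11 fibroblast markers and 1 to 2 of 21 markers of leukocytes and endothelium. Markers of squamous differentiation at that level numbered 11 to 16 of 26, and those of columnar and secretory epithelium 9 to 11 of 32. Between 11794 and 12306 genes reached that level in each library. The controls at 2 and 6 hr shared 359 identical values above 0, against 0 in any of the 14 remaining pairs, and none of these values belonged to one of the 62 genes. The control at 2 hr also had 14 of 25 brain markers at an RPKM of 1 or more, against 5 to 6 in the other libraries.

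IL-13 is a cytokine of type 2 immunity that acts on epithelial cells through a receptor made of IL4RA and IL13RA1. The receptor activates Janus kinases, which phosphorylate STAT6, and STAT6 binds DNA at palindromic sites in which TTC and GAA stand a few bases apart. In the esophagus IL-13 is raised in eosinophilic esophagitis, where the epithelium makes eosinophil chemokines and loses part of its differentiation program. Of 31 known epithelial IL-13 targets measured from the list used here, 15 had a difference of at least 0.8 at 24 hr with an RPKM of 1 or more. Such a difference was found in 1.03% of the 12389 genes with the span and the RPKM. An RPKM of 1 or more was reached by 17 of the 31 with IL-13 and 11 in control cells, so part of the list passed it through the IL-13 library alone. DPP4 is the sole gene of that list among the 62. The list was chosen with earlier results of these data known, so its counts are no independent support.

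Promoter letters of 5 of the genes are given because DPP4 had the largest difference, AREG is the growth factor of the set, and MPPED2, PRDM1 and RTP4 hold the spaced TTC and GAA letters that STAT6 can bind. Each run is 300 bases from 250 before to 50 after a transcription start, 5′ to 3′ on the gene's strand, from RefSeq on GRCh38.p14. The regions are chr2:162074166-162074465 (minus) for DPP4, chr4:74444886-74445185 (plus) for AREG, chr11:30584673-30584972 (minus) for MPPED2, chr6:106098691-106098990 (plus) for PRDM1 and chr3:187368135-187368434 (plus) for RTP4. Capitals mark TGACGTCA, the letters of a cyclic AMP response element, in AREG and TTC and GAA with 4 bases of any kind between them in the other genes, while the DPP4 run holds neither.
DPP4: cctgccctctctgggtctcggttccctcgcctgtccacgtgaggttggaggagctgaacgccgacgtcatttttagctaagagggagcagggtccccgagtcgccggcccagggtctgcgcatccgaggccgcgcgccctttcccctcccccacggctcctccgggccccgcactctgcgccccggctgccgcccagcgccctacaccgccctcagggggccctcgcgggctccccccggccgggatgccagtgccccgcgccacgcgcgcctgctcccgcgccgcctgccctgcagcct
AREG: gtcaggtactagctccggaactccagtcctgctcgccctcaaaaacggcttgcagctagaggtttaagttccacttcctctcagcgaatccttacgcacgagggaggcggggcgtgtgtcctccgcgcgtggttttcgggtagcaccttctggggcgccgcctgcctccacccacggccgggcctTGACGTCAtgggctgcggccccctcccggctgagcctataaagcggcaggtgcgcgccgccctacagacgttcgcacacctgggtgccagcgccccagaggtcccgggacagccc
MPPED2: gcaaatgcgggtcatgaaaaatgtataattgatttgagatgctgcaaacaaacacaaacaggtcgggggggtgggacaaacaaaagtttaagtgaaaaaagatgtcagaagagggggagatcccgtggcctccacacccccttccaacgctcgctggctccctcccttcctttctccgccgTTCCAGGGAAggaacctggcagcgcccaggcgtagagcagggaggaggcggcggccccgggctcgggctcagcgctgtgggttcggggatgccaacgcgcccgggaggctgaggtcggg
PRDM1: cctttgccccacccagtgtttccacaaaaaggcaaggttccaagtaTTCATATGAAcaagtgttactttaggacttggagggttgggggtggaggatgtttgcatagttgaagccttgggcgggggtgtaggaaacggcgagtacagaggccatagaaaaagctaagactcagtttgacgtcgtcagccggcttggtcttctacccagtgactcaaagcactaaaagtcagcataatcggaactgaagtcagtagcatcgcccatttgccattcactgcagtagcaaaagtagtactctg
RTP4: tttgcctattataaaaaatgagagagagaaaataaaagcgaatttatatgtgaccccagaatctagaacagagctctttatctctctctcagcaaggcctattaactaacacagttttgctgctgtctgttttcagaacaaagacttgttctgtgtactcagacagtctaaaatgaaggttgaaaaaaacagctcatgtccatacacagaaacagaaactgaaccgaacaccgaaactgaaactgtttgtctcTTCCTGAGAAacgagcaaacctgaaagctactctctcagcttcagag

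The AREG match begins 65 bases before the start, the MPPED2 match 69 before and the PRDM1 match 204 before, whereas the RTP4 match lies just inside the transcript. The MPPED2 run is 1 of 5 listed starts of that gene and the PRDM1 run 1 of 2. In hg19 the AREG symbol has a second start 169777 bases from the one whose RNA is given below. Which of these the AREG run belongs to was not tested. RefSeq held windows for 44 of the 62 genes, 67 windows in all. TTC and GAA with 4 bases between them were found in 7.46% of them (C1orf192, HIST1H3H, MPPED2, PRDM1 and RTP4), against 6.44% of all 35116 human windows of the same length. With 3 spacer bases, TTCNNNGAA was found in 2.99% against 7.66%, and TGANTCA, the letters of an AP-1 site, in 4.48% against 7.71%. TGACGTCA was found in 1.49% against 1.85%, which is AREG alone among the genes. Each motif is its own reverse complement, so both strands were read at once. PRDM1 held TGANTCA beside the form with 4 spacer bases. Median GC content was 61.3% in the windows of these genes and 58.7% in all windows, with a median of 18 against 14 CG dinucleotides. Of the 2 forms with TTC and GAA, the one with 4 spacer bases, in 5 of the 67 windows, was thus near the share of all promoters. The one with 3 was found in 2 of the 67. Some windows belong to the same gene, and so few windows do not show that its share is lower.

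Most of the 62 genes were expressed at a low level. Their median RPKM at 24 hr was 2.00 with IL-13 and 0.913 in control cells, where the 12389 genes past the span and RPKM limits, called expressed here, had medians of 12.7 with IL-13 and 12.6 in control cells. With IL-13, 45 of them were under an RPKM of 3 at 24 hr, which is 72.6% against 15.3% of the expressed genes, and 6 were at 10 or more. Since the rule requires the difference at 24 hr, the following values describe the choice and carry no test. The median difference of the 62 genes was -0.03 at 2 hr, 0.02 at 6 hr and 0.93 at 24 hr, against 0.00, -0.00 and 0.02 for the expressed genes. At 24 hr it ran from 0.80 to 3.49, with 23 genes at 1 or more and 3 at 2 or more. A difference of 0.8 or more at 24 hr was found in 1.03% of expressed genes. Under limits of the same size, 14 genes were higher only at 2 hr, 9 only at 6 hr and 154 were lower only at 24 hr.

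**Figure D1:**
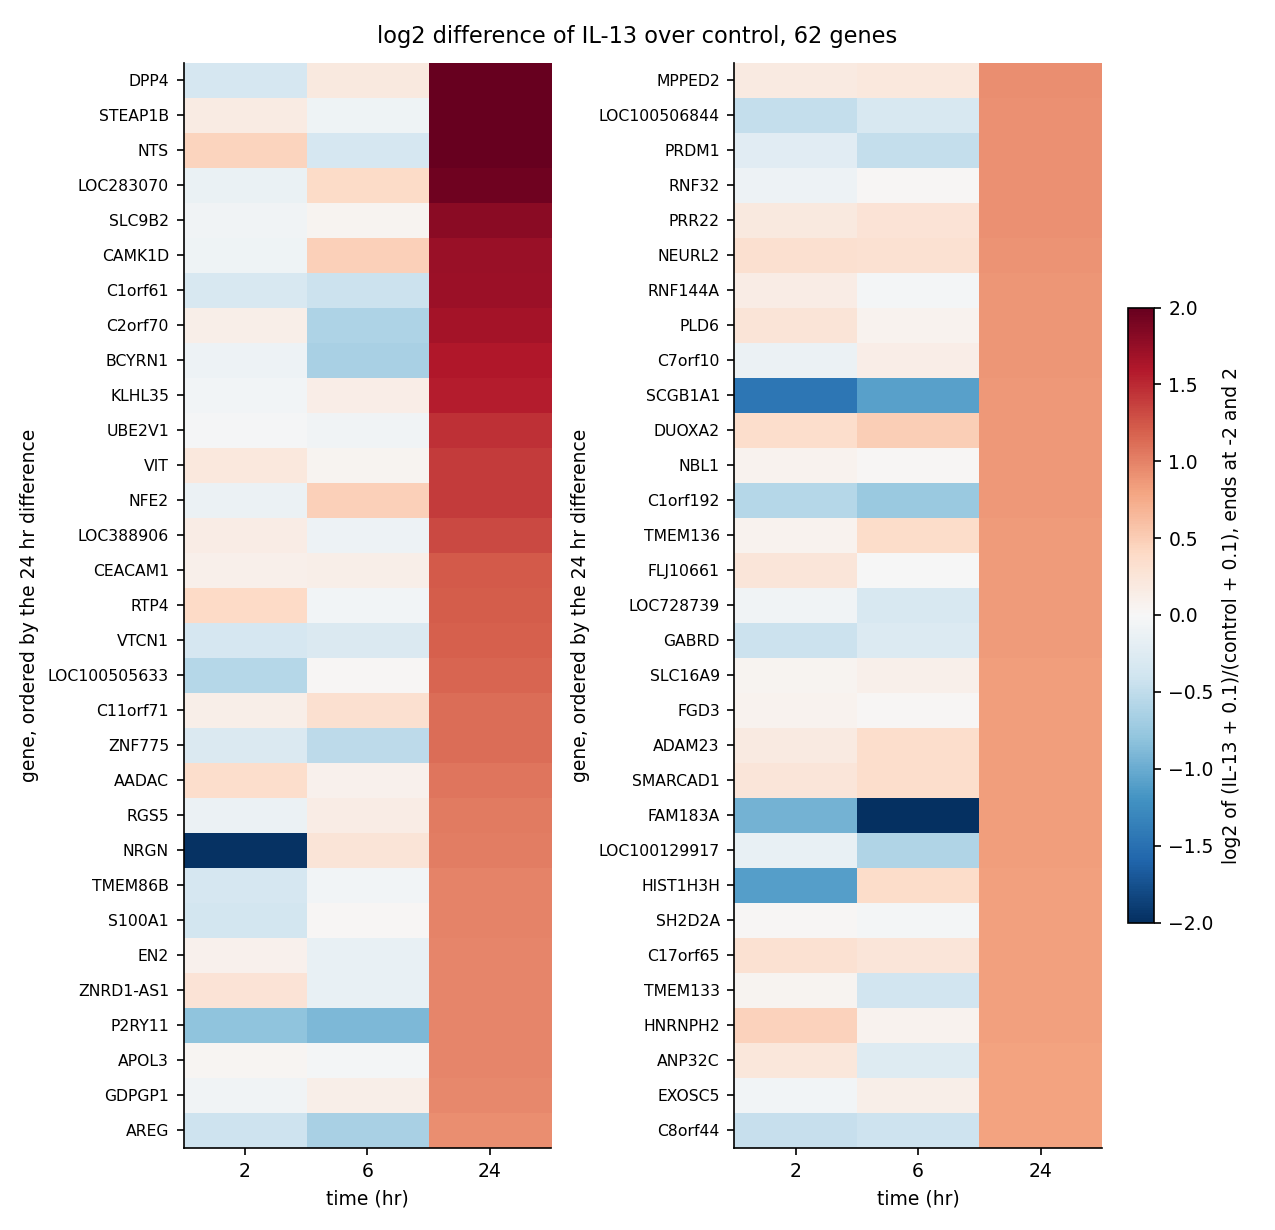
Colour gives the log2 difference of IL-13 over control on RPKM + 0.1 for each of the 62 genes (rows) at 2, 6 and 24 hr (columns), with colours ending at -2 and 2. The 24 hr column is red throughout by the choice of genes, and the early columns range from -2.00 for FAM183A at 6 hr to 0.49 for DUOXA2 at 6 hr.

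In the authors' deposited table, 8 of the 62 genes had an adjusted p under 0.05 at 24 hr, a limit that 0.396% of expressed genes passed in the direction of IL-13. They are DPP4, LOC283070, SLC9B2, CAMK1D, UBE2V1, AREG, MPPED2 and SMARCAD1. The table gives an adjusted p of 1 for 40 of the 62 at 24 hr and no adjusted p under 0.05 for any of them at 2 or 6 hr. That p rests on the same pair of libraries as the choice of genes, so the count adds nothing independent. For C17orf65 and LOC100129917 the authors' deposited log2 ratio at 24 hr was 0.188 and 0.301, well under their differences of 0.82 and 0.83 here. The height of these differences is therefore uncertain.

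The group labelled cell surface and secreted was the most numerous role, with 21 genes, put together after the values were seen. The label is broad and also takes in genes such as RTP4, a chaperone, and DUOXA2, a maturation factor. Its share among expressed genes was not counted. The median RPKM of the 21 genes at 24 hr was 1.95 with IL-13 and 0.791 in control cells. DPP4 (chromosome 2, 162848755 to 162931052, minus strand, hg19), a membrane peptidase that removes dipeptides from the ends of peptides and chemokines, led the set. Its RPKM was 0.0178, 0.0522 and 1.44 at 2, 6 and 24 hr with IL-13, against 0.0484, 0.0329 and 0.0378 in control cells. The IL-13 library of 24 hr stood alone, and the other 5 libraries were near the bottom of the scale. The plain ratio at 24 hr was 38.2, and the authors' deposited table gives a log2 ratio of 5.24 with an adjusted p of 1.79e-07.

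NTS (chromosome 12, 86268073 to 86276770, plus strand) encodes the secreted peptide neurotensin. Its RPKM was 0.0561, listed at 0 and 1.78 at 2, 6 and 24 hr with IL-13, against 0.015, 0.0264 and 0.357 in control cells. Both libraries of 24 hr were thus above all early ones, and the IL-13 library was 5.00-fold above its control. SLC9B2 (chromosome 4, 103946652 to 103998170, minus strand), a sodium-proton exchanger, differed by 1.80 at 24 hr. It was at 3.44, 3.78 and 7.83 RPKM with IL-13, against 3.60, 3.63 and 2.17 RPKM in control cells. The highest library was IL-13 at 24 hr and the lowest was its control, so both sides contributed to a ratio of 3.61. The authors' deposited table gives an adjusted p of 3.18e-06 for it.

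STEAP1B (chromosome 7, 22478038 to 22539901, minus strand), a relative of STEAP1, had its difference of 2.10 from a low control. It was at 1.37, 1.52 and 2.03 RPKM with IL-13, against 1.22, 1.61 and 0.397 RPKM in control cells. STEAP1 itself, with 10.1 RPKM with IL-13 and 5.89 RPKM in control cells at 24 hr, had a difference of 0.77, just under the limit. Reads of the 2 relatives may have been exchanged, since the counting is not given in the sources used here, and the STEAP1B values are uncertain for that reason.

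AREG (chromosome 4, 75480629 to 75490485, plus strand) encodes amphiregulin, a ligand of the epidermal growth factor receptor. It was the most abundant of the 62 with IL-13 at 24 hr. Its RPKM was 130, 22.8 and 35.9 at 2, 6 and 24 hr with IL-13, against 174, 35.7 and 18.8 in control cells. The IL-13 libraries were below their controls at 2 and 6 hr and above at 24 hr, where the difference was 0.93 and the authors' deposited table gives an adjusted p of 0.0312. Peaks under this symbol were also listed at a start 169777 bases away, so the symbol has more than 1 place in the build and reads of a second copy could have been split. On the list of growth factor, Wnt and BMP genes, AREG was the sole one of 27 expressed genes with a difference of 0.8 or more at 24 hr. Among all expressed genes that share was 1.03%. On that list 7 genes were at -0.8 or less, where 1.87% of expressed genes were, and the median was -0.30.

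CEACAM1, an adhesion molecule, was at 2.02, 1.10 and 2.66 RPKM with IL-13 at 2, 6 and 24 hr, against 1.88, 1.00 and 1.08 RPKM in control cells. VTCN1, the T-cell inhibitory ligand B7-H4, was at 0.252, 0.539 and 1.95 RPKM with IL-13, against 0.346, 0.677 and 0.791 RPKM in control cells. Their differences at 24 hr were 1.22 and 1.20. NBL1, a secreted antagonist of bone morphogenetic proteins, was at 14.5, 20.7 and 22.4 RPKM with IL-13, against 13.8, 20.4 and 12.3 RPKM in control cells. Its early values nearly coincide between treatments, and at 24 hr it was higher with IL-13 than at 6 hr while its control was lower. The read-through gene C1orf151-NBL1 overlaps NBL1 on the same strand, and how reads were divided between them was not tested. VIT, an extracellular matrix protein, was at 0.693, 0.457 and 1.69 RPKM with IL-13, against 0.585, 0.439 and 0.576 RPKM in control cells, and its 24 hr IL-13 library alone passed 1.

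RTP4 (chromosome 3, 187086168 to 187089369, plus strand), a chaperone of G protein-coupled receptors, was at 0.123, 0.0571 and 1.48 RPKM with IL-13, against 0.0683, 0.0639 and 0.583 RPKM in control cells. APOL3, an apolipoprotein L, was at 0.235, 0.223 and 1.51 RPKM with IL-13, against 0.226, 0.232 and 0.721 RPKM in control cells. AADAC, a lipid esterase, was at 0.625, 0.694 and 2.62 RPKM with IL-13, against 0.466, 0.645 and 1.19 RPKM in control cells. All 3 were higher at 24 hr than before in either treatment, and further so with IL-13. RTP4 also responds to interferon. Of 25 expressed interferon-stimulated genes on the list used, 0 differed by 0.8 or more in either direction at 24 hr. Among expressed genes 1.03% were higher and 1.87% lower by that size, so a list of this length can hold 0. A part of interferon in the RTP4 values was not tested.

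DUOXA2, the maturation factor of the peroxide-making oxidase DUOX2, was at 2.57, 2.43 and 5.09 RPKM with IL-13, against 1.98, 1.70 and 2.73 RPKM in control cells. Its 6 hr difference of 0.49 is the nearest to the early limit, so it was higher with IL-13 at all 3 times. Its partner DUOX2 was at 9.82 RPKM with IL-13 and 6.47 RPKM in control cells at 24 hr, a difference of 0.59. DUOXA1, which overlaps DUOXA2 on the other strand, was more abundant and differed early, with 20.6, 26.0 and 29.2 RPKM with IL-13 at 2, 6 and 24 hr, against 13.7, 12.4 and 25.3 RPKM in control cells. DUOX1 likewise had its widest difference, 0.75, at 6 hr. SLC16A9, a monocarboxylate transporter, was at 6.70, 10.1 and 4.95 RPKM with IL-13, against 6.42, 9.38 and 2.72 RPKM in control cells. ADAM23, a disintegrin without protease activity, was at 3.06, 3.95 and 6.06 RPKM with IL-13, against 2.70, 3.08 and 3.34 RPKM in control cells. The SLC16A9 difference thus stood on a level that was lower at 24 hr in both treatments. From 6 to 24 hr ADAM23 changed by 0.60 with IL-13 and 0.11 in the controls, as log2 of RPKM + 0.1. The medians of expressed genes were 0.23 with IL-13 and 0.24 in the controls.

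The purinergic receptor P2RY11 was at 2.43, 2.46 and 1.36 RPKM with IL-13, against 4.30, 4.67 and 0.640 RPKM in control cells. Its sign therefore changed between 6 and 24 hr. The overlapping read-through gene PPAN-P2RY11 had 4.18, 2.20 and 1.98 RPKM with IL-13, against 2.62, 0.224 and 2.51 RPKM in control cells, the opposite pattern, and how reads were divided between them was not tested. GABRD, a subunit of the GABA receptor, had 2.07 RPKM with IL-13 and 1.11 RPKM in control cells at 24 hr. SCGB1A1, the secretoglobin of airway club cells, had 0.085, 0.181 and 1.58 RPKM with IL-13, against 0.405, 0.499 and 0.815 RPKM in control cells. It is the sole one of 11 expressed markers of columnar and secretory epithelium with a difference of 0.8 or more at 24 hr. A difference of that size was found in 1.03% of expressed genes. SCGB1A1 counts as expressed through the IL-13 library alone, as 10 markers of that list reached an RPKM of 1 in control cells at 24 hr.

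**Figure D2:**
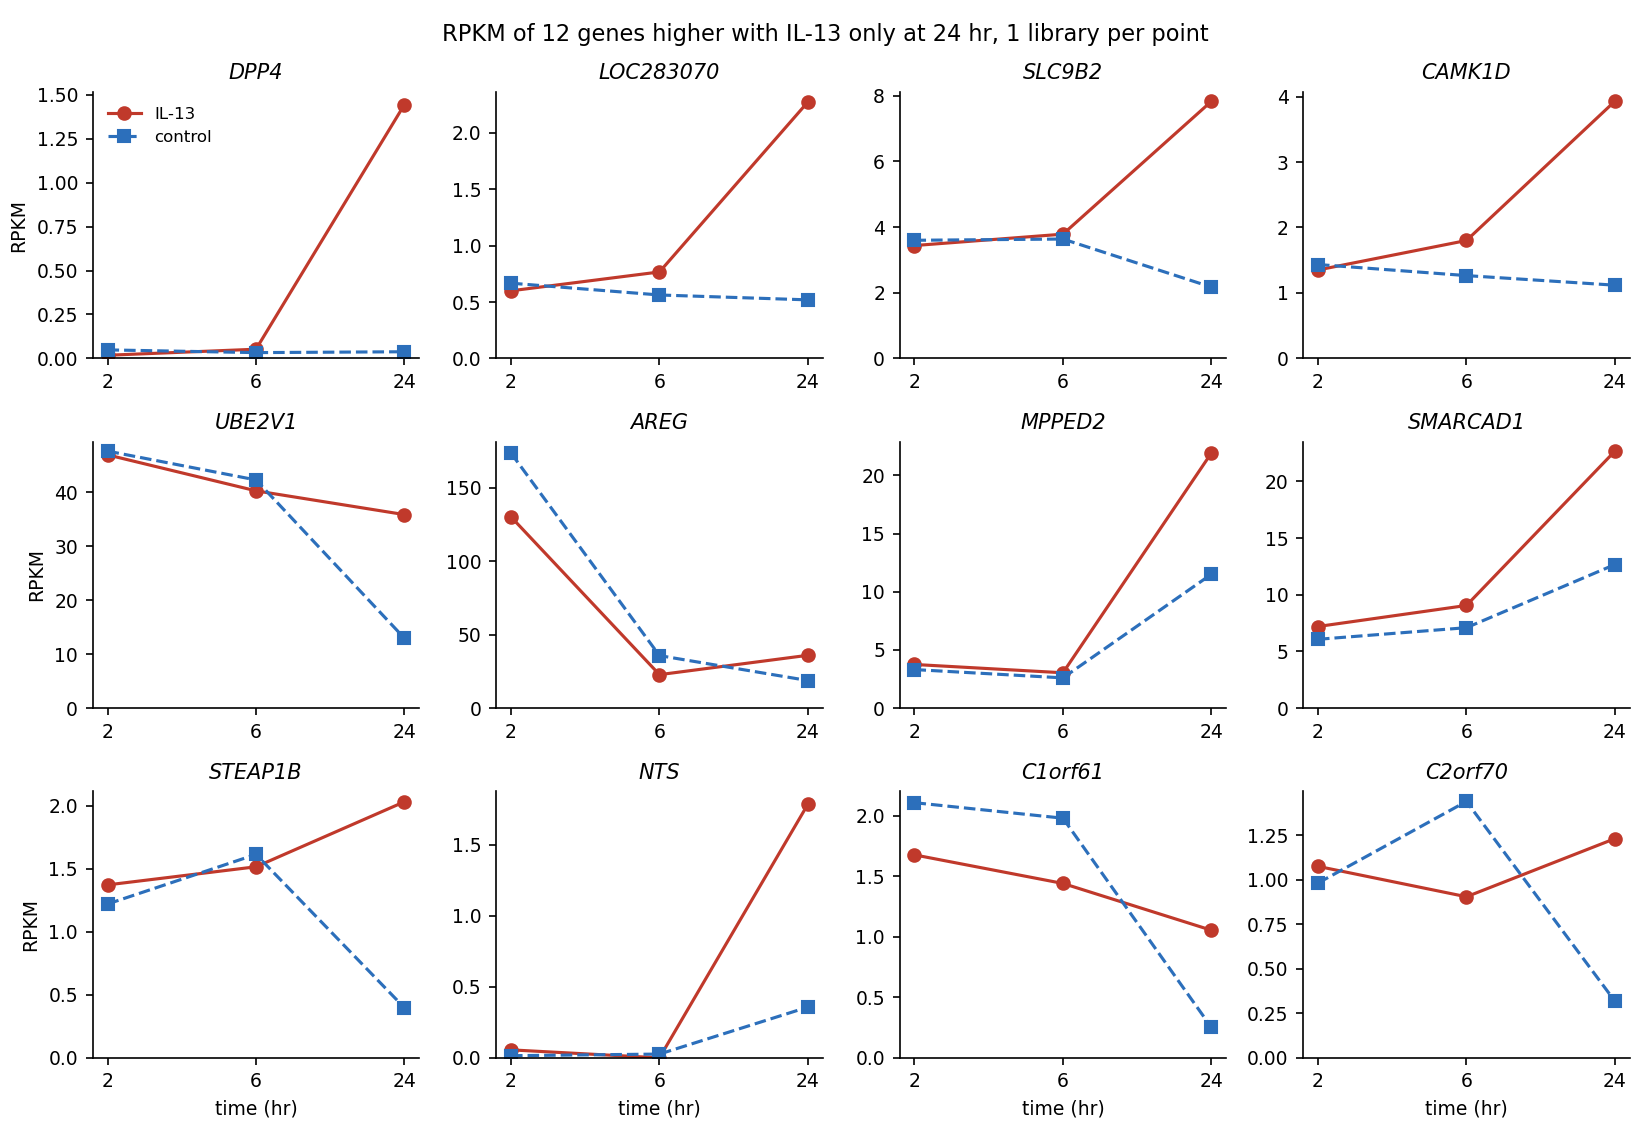
RPKM (vertical axis, from 0) at 2, 6 and 24 hr (horizontal axis) with IL-13 (red circles) and in control cells (blue squares), 1 library per point, for the 8 genes that pass an adjusted p of 0.05 at 24 hr in the authors' deposited table and the 4 others with the largest differences. DPP4, LOC283070, CAMK1D and NTS separate through the IL-13 library of 24 hr, and UBE2V1, C1orf61 and C2orf70 through the control of 24 hr.

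Enzymes and adaptors that act inside the cell gave 10 genes. CAMK1D (chromosome 10, 12391583 to 12871733, plus strand), a calcium and calmodulin dependent kinase, was at 1.35, 1.80 and 3.93 RPKM with IL-13 at 2, 6 and 24 hr, against 1.43, 1.27 and 1.12 RPKM in control cells. Its IL-13 values were higher at each later time, and the 24 hr difference was 1.73 with an adjusted p of 0.0389 in the authors' deposited table. LOC283070 (chromosome 10, 12875133 to 12877545, plus strand) starts 3400 bases after the end of CAMK1D on the same strand. It was at 0.600, 0.767 and 2.28 RPKM with IL-13, against 0.667, 0.563 and 0.519 RPKM in control cells. The 2 neighbours had the same course over the 6 libraries, and whether LOC283070 reads belong to a longer CAMK1D transcript was not tested.

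MPPED2 (chromosome 11, 30431618 to 30607930, minus strand), a metallophosphoesterase, was at 3.75, 3.04 and 21.9 RPKM with IL-13, against 3.31, 2.60 and 11.5 RPKM in control cells. It was several-fold higher at 24 hr than at 6 hr in both treatments, and its difference of 0.92 lay on top of that, with an adjusted p of 0.0111 in the authors' deposited table. RGS5, which turns off G proteins, was at 0.411, 0.481 and 1.23 RPKM with IL-13, against 0.454, 0.425 and 0.543 RPKM in control cells. PLD6, a mitochondrial phospholipase, was at 5.50, 7.19 and 5.98 RPKM with IL-13, against 4.59, 6.83 and 3.20 RPKM in control cells. RGS5 thus separated through the IL-13 library and PLD6 through the control.

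S100A1, a calcium-binding protein, had 1.08 RPKM with IL-13 and 0.496 RPKM in control cells at 24 hr. GDPGP1, a phosphorylase of GDP-glucose, had 1.16 RPKM with IL-13 and 0.546 RPKM in control cells. NRGN, a calmodulin-binding protein of neurons, had 1.10, 1.64 and 1.29 RPKM with IL-13, against 4.60, 1.35 and 0.586 RPKM in control cells. Its 2 hr difference of -1.97 came from the control library that had 14 of 25 brain markers at an RPKM of 1 or more, and the part of that in the NRGN value was not tested. FGD3, a guanine nucleotide exchange factor, had 1.54 RPKM with IL-13 and 0.813 RPKM in control cells at 24 hr.

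Transcription, chromatin and RNA gave 8 genes, and 5 more act in the ubiquitin pathway. SMARCAD1 (chromosome 4, 95174445 to 95212443, plus strand), a chromatin remodeling ATPase, was at 7.20, 9.05 and 22.7 RPKM with IL-13, against 6.07, 7.09 and 12.7 RPKM in control cells. The adjusted p at 24 hr was 0.0469 in the authors' deposited table. PRDM1 (chromosome 6, 106546737 to 106557814, plus strand), the repressor Blimp-1, was at 0.458, 0.0541 and 2.24 RPKM with IL-13, against 0.555, 0.113 and 1.14 RPKM in control cells. NFE2, a basic leucine zipper factor of blood cell lineages, was at 0.388, 0.674 and 1.78 RPKM with IL-13, against 0.430, 0.456 and 0.613 RPKM in control cells. For these 3 genes the IL-13 library of 24 hr was the highest of all 6 libraries.

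EN2, a homeobox factor, was at 2.50, 2.13 and 1.47 RPKM with IL-13, against 2.35, 2.37 and 0.695 RPKM in control cells. EXOSC5, a subunit of the RNA exosome, was at 11.6, 15.2 and 10.7 RPKM with IL-13, against 12.0, 14.1 and 6.09 RPKM in control cells. Both genes were lower at 24 hr than at 6 hr in either treatment, and less so with IL-13. ZNF775, a zinc finger protein, had 1.10 RPKM with IL-13 and 0.454 RPKM in control cells at 24 hr. HIST1H3H, a replication histone H3, had 2.56 RPKM with IL-13 and 1.40 RPKM in control cells, and as 1 of many near-identical histone genes its value is uncertain. HNRNPH2, a splicing regulator, had 2.92 RPKM with IL-13 and 1.62 RPKM in control cells and lies inside the read-through gene RPL36A-HNRNPH2. That read-through gene had 147 RPKM with IL-13 and 152 RPKM in control cells at 24 hr, a difference of -0.05. How reads were divided between them was not tested, so the HNRNPH2 value is uncertain.

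UBE2V1 (chromosome 20, 48697661 to 48732496, minus strand), a ubiquitin-conjugating enzyme variant that works with UBE2N, was at 46.9, 40.2 and 35.8 RPKM with IL-13, against 47.6, 42.3 and 12.9 RPKM in control cells. The control of 24 hr stood alone below the other 5 libraries, the ratio was 2.77, and the authors' deposited table gives an adjusted p of 2.59e-07. The read-through gene TMEM189-UBE2V1, which contains it, had 67.4 RPKM with IL-13 and 90.0 RPKM in control cells at 24 hr, a difference of -0.42 in the other direction. How reads were divided between them is not given in the sources used here, so the UBE2V1 value is uncertain. RNF144A, a ubiquitin ligase, was at 2.48, 1.98 and 6.23 RPKM with IL-13, against 2.23, 2.03 and 3.33 RPKM in control cells. KLHL35, a Kelch-like protein, had 1.10 RPKM with IL-13 and 0.304 RPKM in control cells at 24 hr, and RNF32, a RING finger protein, had 1.32 RPKM with IL-13 and 0.652 RPKM in control cells.

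The remaining genes were 16 of noncoding, LOC or uncharacterised type and 2 of cilia, with median RPKM at 24 hr of 1.71 with IL-13 and 0.773 in control cells for the 16. BCYRN1, a small noncoding RNA of neurons, was at 26.4, 14.9 and 3.73 RPKM with IL-13, against 28.4, 23.5 and 1.16 RPKM in control cells. It was far lower at 24 hr than before in both treatments, and its record spans 518927 bp of chromosome X across several other genes, so the origin of its reads is uncertain. C1orf61 had 1.68, 1.44 and 1.05 RPKM with IL-13, against 2.11, 1.98 and 0.252 RPKM in control cells. C2orf70 had 1.08, 0.905 and 1.23 RPKM with IL-13, against 0.982, 1.44 and 0.318 RPKM in control cells. In both, the control of 24 hr was the lowest of all 6 libraries.

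Further genes of this kind were LOC100505633, with 2.44 RPKM with IL-13 and 1.04 RPKM in control cells at 24 hr, and LOC388906, with 1.03 RPKM with IL-13 and 0.356 RPKM in control cells. C11orf71 had 2.09 RPKM with IL-13 and 0.911 RPKM in control cells, and ZNRD1-AS1, an antisense transcript, had 1.06 RPKM with IL-13 and 0.485 RPKM in control cells. Without stated use of strand in the counting, reads of an antisense gene and its partner cannot be told apart. Of the 62 genes, 17 overlap another gene of the table, 10 on the same strand and 9 on the other. Their starts lie on 17 chromosomes, and 2 pairs are within 1 Mb of each other, namely LOC283070 with CAMK1D and C1orf61 with SH2D2A.

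A 24 hr difference can stand on a higher IL-13 library or on a lower control, and the set held both forms. The IL-13 library of 24 hr was the highest of all 6 libraries for 45 genes, the control of 24 hr was the lowest for 27, and 10 genes had both. Between 6 and 24 hr the median change of the 62 genes was 0.91 in the IL-13 libraries and -0.23 in the controls, on the log2(RPKM + 0.1) scale. The expressed genes changed by medians of 0.23 with IL-13 and 0.24 in the controls, so they moved alike. A change of 0.8 or more with IL-13 was found in 32 of the 62 genes, where 21.6% of expressed genes had one. A change of -0.8 or less in the controls was found in 20, where 7.44% of expressed genes had one. No gene had both and 10 had neither. These counts use the same 24 hr values as the rule and are a description. The headers of both libraries of 24 hr carry a common tag that those of 2 and 6 hr lack, and what it marks is not stated, so time and that tag cannot be told apart.

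Among the genes that separated through the control were UBE2V1, with a change of -0.17 with IL-13 and -1.70 in the controls, and STEAP1B, with 0.40 with IL-13 and -1.79 in the controls. AREG, with 0.66 with IL-13 and -0.93 in the controls, moved on both sides. Among those that separated through IL-13 were DPP4, with 3.34 with IL-13 and 0.05 in the controls, and NTS, with 4.24 with IL-13 and 1.85 in the controls. A change of 0.8 or more was found in the controls too for 11 genes, among them MPPED2, with 2.81 with IL-13 and 2.10 in the controls, and PRDM1, with 3.93 with IL-13 and 2.54 in the controls. A change of -0.8 or less was found with IL-13 for 5 genes, among them BCYRN1, with -1.97 with IL-13 and -4.23 in the controls, and SLC16A9, with -1.01 with IL-13 and -1.75 in the controls. Since the early and late controls are single libraries, a shift of the control at 24 hr and a response to IL-13 cannot be told apart for the second form.

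**Figure D3:**
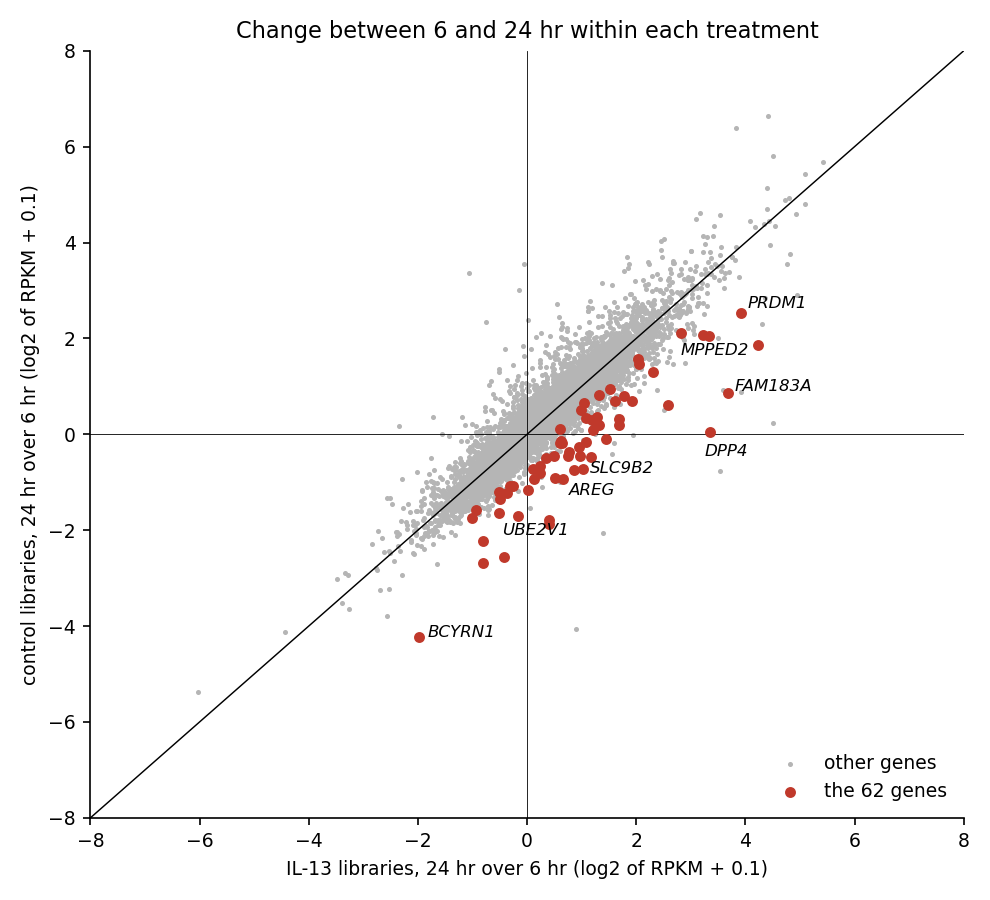
Each point is a gene, with the log2 change of RPKM + 0.1 from 6 to 24 hr in the IL-13 libraries on the horizontal axis and in the controls on the vertical axis, for the 62 genes (red) and the other expressed genes (grey), and the line marks equal change. By the choice of genes the red points lie below the line, with BCYRN1 at -1.97 with IL-13 and -4.23 in the controls, and PRDM1 at 3.93 with IL-13 and 2.54 in the controls.

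Counting error can be given for part of the set. Depth read from the low RPKM values was 14.0 megareads with IL-13 and 13.6 megareads in control cells at 24 hr. For genes with a single transcript, the smallest whole numbers of reads that give both RPKM values were sought, which can be a fraction of the true numbers. They were found for 32 genes, 23 have several transcripts and 7 gave no solution. The exact 95% interval of the ratio, which covers counting error only and is at its widest for the smallest numbers, was above 1 in 20 of the 32. Because the genes were taken for a high ratio, the intervals are no test.

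DPP4 rested on 79 reads with IL-13 and 2 in control cells, with an interval of 10.2 to 321 around the ratio of 38.2. NTS rested on 31 reads with IL-13 and 6 in control cells, with 2.05 to 14.7 around 5.00. SLC9B2 had 369 reads with IL-13 and 99 in control cells, with 2.88 to 4.55 around 3.61, and LOC283070 had 77 reads with IL-13 and 17 in control cells, with 2.57 to 7.91 around 4.38. The narrowest interval belonged to AREG, with 624 reads with IL-13 and 315 in control cells and 1.67 to 2.20 around 1.92. RNF144A, with 501 reads with IL-13 and 259 in control cells, had 1.61 to 2.18 around 1.87. The ratio of EXOSC5 was 1.76 with an interval of 1.33 to 2.33, from 149 reads with IL-13 and 82 in control cells.

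The interval included 1 in 12 genes, so that their difference was not detectable with the reads found. Those reads can be a fraction of the true ones, and the interval is then wider than the true reads would give. SCGB1A1 rested on 10 reads with IL-13 and 5 in control cells, with 0.603 to 7.22 around 1.94, and BCYRN1 on 10 reads with IL-13 and 3 in control cells, with 0.830 to 18.2 around 3.23. The other 10 were LOC388906, ZNF775, C11orf71, ZNRD1-AS1, GDPGP1, PRR22, LOC728739, FAM183A, HIST1H3H and ANP32C.

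**Figure D4:**
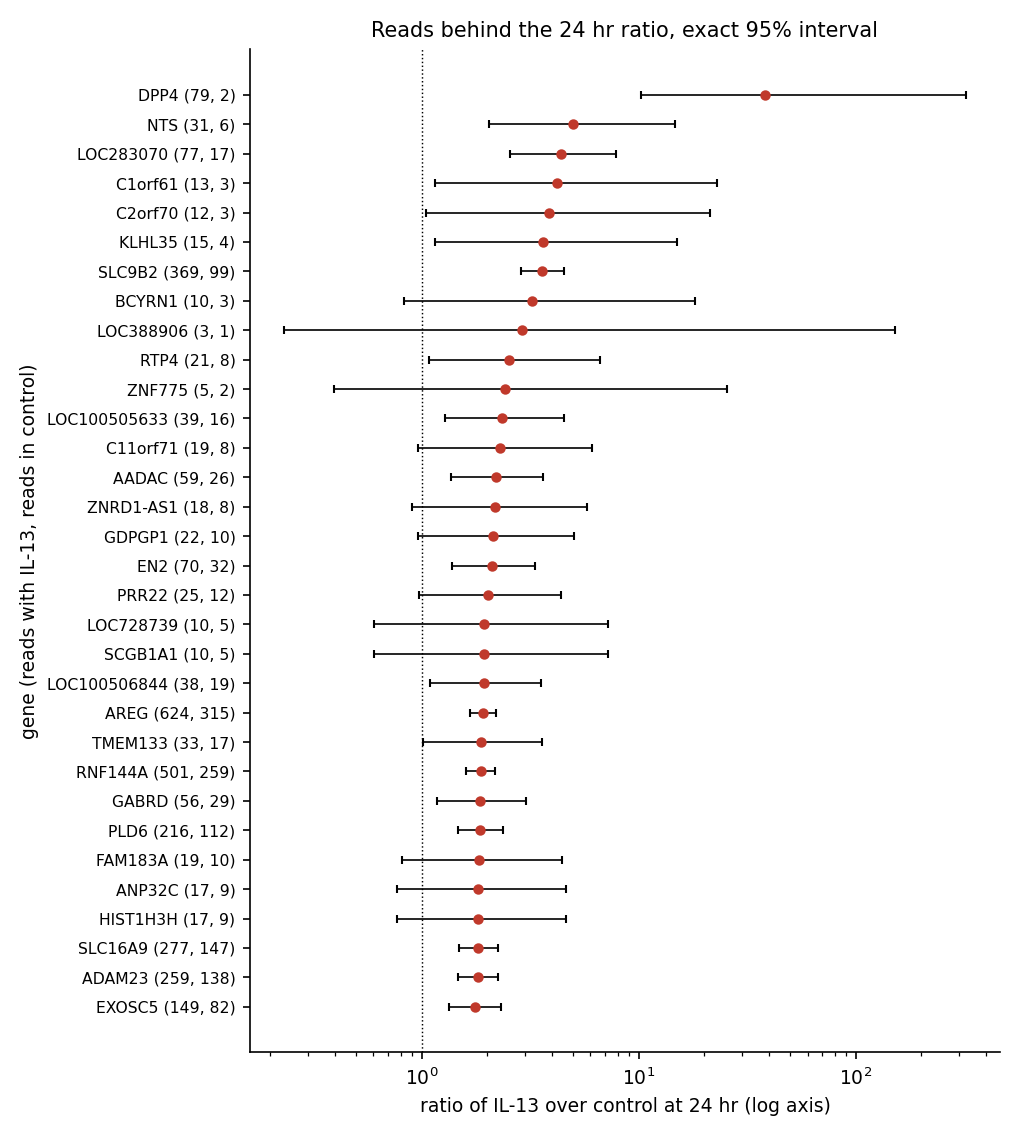
Ratio of IL-13 over control at 24 hr (horizontal axis, log scale) with its exact 95% counting interval (bars) for the 32 genes whose reads could be found, with reads with IL-13 and in control cells in brackets and a dotted line at 1. The interval lies above 1 for 20 genes, from 1.67 to 2.20 for AREG and from 10.2 to 321 for DPP4.

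Some genes lie close to the limits of the rule. Just inside the 24 hr limit of 0.8 were C8orf44 with 0.800, EXOSC5 with 0.804 and ANP32C with 0.806, and among those just outside were SERPINE2 with 0.796 and KC6 with 0.791. At 2 hr HNRNPH2 with 0.46, NTS with 0.44 and RTP4 with 0.40 were inside and ALOX15P1 with 0.51, C1QTNF9B-AS1 with 0.55 and SLC9A4 with 0.57 outside. At 6 hr DUOXA2 with 0.49, NFE2 with 0.48 and CAMK1D with 0.48 were inside and BATF3 with 0.51, PRR5L with 0.53 and LGR6 with 0.53 outside. For RPKM at 24 hr LOC388906 with 1.03, C1orf61 with 1.05 and ZNRD1-AS1 with 1.06 were inside and SYNPO2 with 0.958, TPRG1-AS2 with 0.937 and SLC9A2 with 0.930 outside. For span HIST1H3H with 472 bp, LOC728739 with 621 bp and ANP32C with 704 bp were inside and the small nucleolar RNAs SNORA62, SNORA65 and SNORA63 outside.

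Other lists of genes were set beside the 62, which are few among the 12389 expressed genes. Of 15 expressed genes of squamous differentiation, 10 had a difference of -0.8 or less at 24 hr, where 1.87% of expressed genes had one, the median was -1.05, and 0 are among the 62. Lists of the extracellular matrix and adhesion (24 expressed genes), ion channels and solute carriers (16), the unfolded protein response and secretion (19) and the neurotrophin pathway (9) also held 0 of the 62. Lists this short can hold 0 by their size alone. They are selections, and SLC9B2, SLC16A9 and VIT are not on them.

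Histone marks at the starts of the genes were measured at 6 hr, before the difference in RNA, and the rule did not use them. A peak of H3K27Ac, a mark of active promoters and enhancers, was listed at the start of 41 of the 62 genes, against 90.9% of expressed genes. A peak of H3K9Ac, a mark of active promoters, was listed for 38, against 90.2%, and a peak of H3K4me3, a mark of transcription starts, for 32, against 87.2%. Much of the set is weakly expressed, and at expressed genes under an RPKM of 3 with IL-13 and in control cells at 24 hr those shares were 73.8%, 71.7% and 65% for the 3 marks in the same order. Of the 45 genes of the set under 3, H3K27Ac peaks were listed for 28, H3K9Ac peaks for 25 and H3K4me3 peaks for 20. All 3 marks were listed for 32 genes. None was listed for 20 genes, among them DPP4, STEAP1B, NTS, LOC283070, AREG, SCGB1A1 and DUOXA2, as the start in the RNA tables gives it.

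For each mark the authors gave M, the rescaled log2 ratio of library 1 over library 2, and headers and labels do not state which of the 2 was treated, so no direction of IL-13 is given. The limits for a difference were an M of 1 or more in either direction and a level of 30 or more in the higher library. Of 36 genes with an H3K27Ac promoter peak at that level, 3 were higher in library 2, against 1.22% of expressed genes and 3.41% of those under an RPKM of 3. In library 1, 1 was higher, against 2.52%. Of 30 genes with such an H3K9Ac peak, 2 were higher in library 2, against 1.21% and 3.14%, and 0 in library 1, against 1.87%. Of 24 genes with such an H3K4me3 peak, 4 were higher in library 2, against 3.19% and 7.78%, and 1 in library 1, against 4.69%. Among the genes of the set under an RPKM of 3, those higher in library 2 were 3 of 24 for H3K27Ac, 2 of 20 for H3K9Ac and 2 of 15 for H3K4me3. With so few genes and 1 library each, these counts carry no test.

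Among promoter peaks of the set at a level of 30 or more, NFE2 had the widest ratios of the acetyl marks. Its H3K27Ac level was 10.9 in library 1 and 48.8 in library 2, an M of -2.16, and its H3K9Ac level was 3.73 in library 1 and 39.9 in library 2, an M of -3.42. EN2 had an H3K27Ac M of -1.22 and an H3K4me3 M of -3.08, with H3K4me3 levels of 4.86 in library 1 and 41.1 in library 2. TMEM136, a membrane protein, had an M of -1.18 for H3K9Ac and -1.52 for H3K4me3. The other peaks higher in library 2 were FGD3 for H3K27Ac with an M of -1.18, SLC9B2 for H3K4me3 with -1.26 and PLD6 for H3K4me3 with -1.09. RNF32 for H3K27Ac, with an M of 1.08, and EXOSC5 for H3K4me3, with 1.14, were higher in library 1.

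The median M over the set, in which peaks go both ways, was -0.02 for H3K27Ac, 0.055 for H3K9Ac and -0.095 for H3K4me3, against 0.08, 0.08 and 0.10 at expressed genes. UBE2V1, with 692 in library 1 and 659 in library 2, had the highest H3K27Ac level of the set. MPPED2 had H3K27Ac levels of 182 in library 1 and 190 in library 2, and PRDM1 had 39.3 in library 1 and 34.9 in library 2. The H3K9Ac levels were further apart, with 224 in library 1 and 323 in library 2 for MPPED2 and 50.7 in library 1 and 35.1 in library 2 for PRDM1. Such peaks were listed at 90.9% of expressed genes for H3K27Ac and 90.2% for H3K9Ac, so acetyl marks at these starts are the common state. That the RNA of these genes differed by less than 0.5 at 6 hr is set by the rule.

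**Figure D5:**
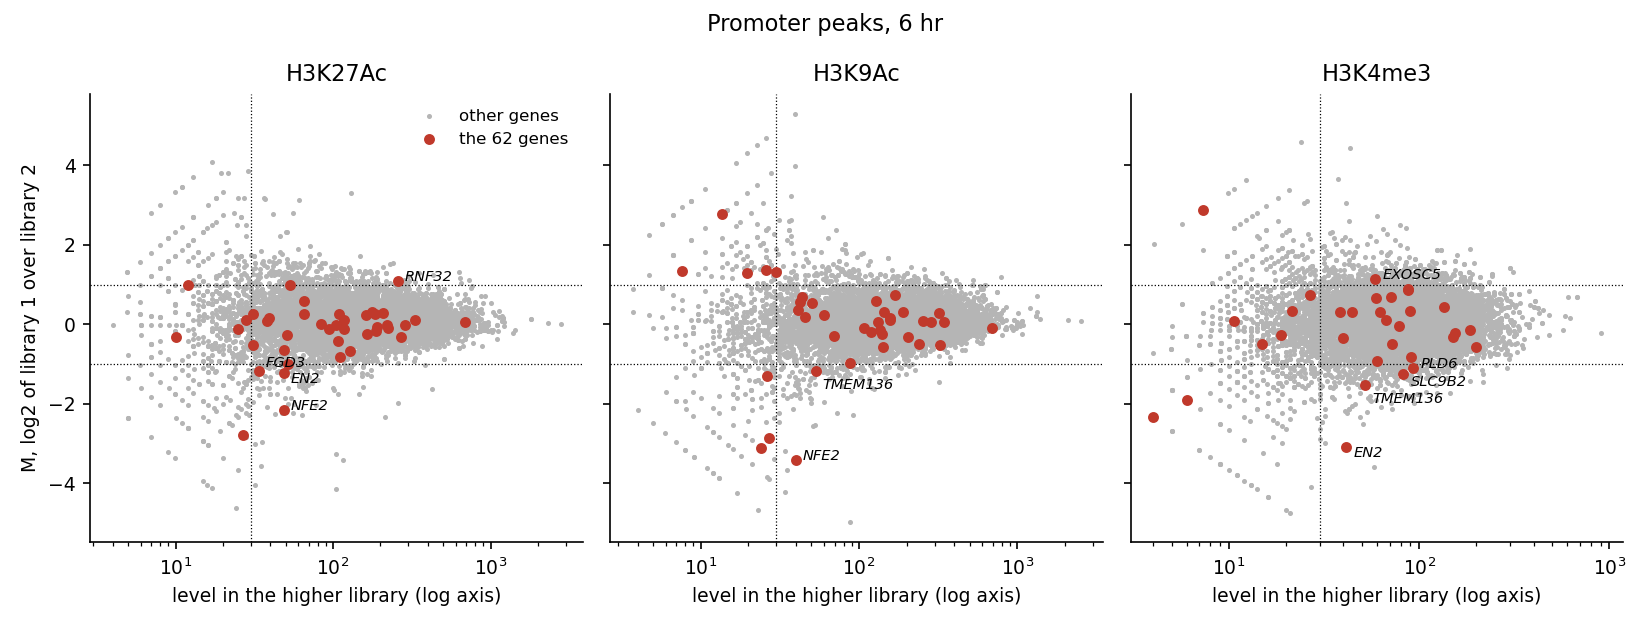
M, the log2 ratio of library 1 over library 2 (vertical axis), against the level in the higher library (horizontal axis, log scale) for promoter peaks of H3K27Ac, H3K9Ac and H3K4me3 at 6 hr, with the 62 genes in red, other expressed genes in grey and dotted lines at a size of 1 and a level of 30. Named points pass both limits, from NFE2 at -3.42 for H3K9Ac to EXOSC5 at 1.14 for H3K4me3.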

How the data were processed

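The authors deposited RPKM per gene, and per the file headers also their own log2 ratio with its p-value, raw and adjusted. Tools named for RNA in the submitters' processing notes are DESeq and TopHat2 2.0.9. For ChIP-seq those notes name MACS2 2.0.10.20130712, Bowtie 1.0.0 and again DESeq, and the build is GRCh37 (hg19). How reads were counted or divided among overlapping genes and how read sets were joined is not given in the sources used here. Peak tables deposited by the authors hold M, a rescaled log2 ratio, A, a mean log2 level, and a p-value on the −log10 scale, as their headers show, and 6 columns of raw reads were not used.

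Differences were computed as log2((IL-13 + 0.1)/(control + 0.1)), which understates changes of low genes, and a ratio or fold is the plain ratio of RPKM. The levels of a peak were computed from M and A, and the promoter peak is the highest listed within 1 bp of the start in the RNA tables. Depth at 24 hr was found from steps in the low RPKM values, since 78.3% (control) and 79.2% (IL-13) of short single-transcript genes gave whole reads within 0.01. The search for reads was checked on 238 short single-transcript genes, of which 223 gave a solution, and for 187 of these the length found divides the span. Intervals are exact Clopper-Pearson. Scripts were tested on simulated data. The labels do not say whether any libraries share a culture, and a tag common to both libraries of 24 hr stands in their headers alone.

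The genes and the gene lists were chosen with earlier results of these data known, and the role groups after the values were seen. Genes named are the 30 with the largest difference, the 10 most abundant with IL-13 at 24 hr, those on a list, those with an authors' adjusted p under 0.05, those with a promoter peak past the limits of M and level, and the 3 nearest each limit of the rule on either side. A few more were named after their values were seen, to fill a role group, as the neighbour of a gene or for a low deposited ratio. Some genes that this rule takes are not reported here. Alternatives were other pseudocounts, RPKM, span and difference limits, centring, and other limits for peaks. Promoter windows were matched through accessions for 43 genes and by symbol for 1. The software was Python 3.11.15 with pandas 2.3.3, NumPy 2.4.6, matplotlib 3.10.9 and SciPy 1.17.1.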

Additional observations from a re-analysis of the deposited data

Results flagged for a closer look

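In 5 genes the difference had the opposite sign and a size of at least 0.8 at an earlier time, against a difference of at least 0.8 at 24 hr. With 1 library for each treatment and time, the change of sign was not tested. FAM183A, a gene of motile cilia, had -0.94 at 2 hr and -2.00 at 6 hr, with 0.112 RPKM with IL-13 and 0.746 RPKM in control cells at 6 hr. SCGB1A1 had -1.45 at 2 hr and -1.09 at 6 hr. NRGN had -1.97 at 2 hr, where the control library was at 4.60 RPKM. HIST1H3H had -1.11 at 2 hr, and P2RY11 had -0.90 at 6 hr.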

How the results depend on the processing

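The number of genes in the set depended on the settings. From 62, it became 20 with a pseudocount of 1 (12 of them among the 62), 94 with an RPKM of at least 0.5, 31 with at least 2, 353 with no minimum RPKM and 23 with a difference of at least 1 at 24 hr. The other 5 settings, a pseudocount of 0.01, no minimum span, an early limit of 0.3, the 6 hr limit alone and centring, gave 48 to 88. With a pseudocount of 1, 50 of the 62 fell under 0.8 at 24 hr, and the 12 that did not were AREG, BCYRN1, CAMK1D, CEACAM1, DPP4, LOC283070, MPPED2, NBL1, NTS, SLC9B2, STEAP1B and UBE2V1. The median 24 hr difference was 0.62 with a pseudocount of 1, 1.00 with 0.01 and 0.91 when centred. The median change from 6 to 24 hr was 0.68 with IL-13 and -0.47 in the controls when centred, and 0.53 with IL-13 and -0.11 in the controls with a pseudocount of 1. For H3K27Ac, peaks higher in library 2 numbered 0 at a level of at least 60, 8 at an M of at least 0.5 and 7 over all peaks of a symbol, and those higher in library 1 numbered 2 with no minimum level and 3 at an M of 0.5. For H3K9Ac, library 2 had 5 with no minimum level, 0 at a level of 60 and 5 at an M of 0.5, and library 1 had 5 with no minimum level, 5 at an M of 0.5 and 1 over all peaks. For H3K4me3, library 2 had 2 at a level of 60 and 7 at an M of 0.5, and library 1 had 2 with no minimum level, 0 at a level of 60 and 5 at an M of 0.5. Each setting alters by its construction which genes or peaks pass, and no other cause was tested. No result changed sign. No paired analysis was possible because each treatment and time is 1 library, and for the same reason no replicate could be left out. Depth and the choice of the smallest reads limit the counting intervals, which included 1 for 12 of the 32 genes with reads found.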
